A study of Mus musculus with 6 samples.

Results

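DNA methylation in colon epithelium was compared between mice that had received azoxymethane (AOM), dextran sulfate sodium (DSS) and curcumin and untreated control mice, to describe what still set the curcumin-treated epithelium apart from epithelium that had seen none of these agents. The comparison took in 4 of the 6 samples of the series, 2 per group, chosen by their labelled group. The remaining 2 samples, from mice given AOM and DSS without curcumin (AOM/DSS), are quoted for reference. All samples were labelled as epithelial cells of the colon from mice of the inbred laboratory strain C57BL/6 aged 18 weeks. The proximal segment and the tumors of the right colon had been taken away, and the mucosa of the rest was scraped off. The scrapings were spun and washed to lower their content of blood cells. The values thus describe the scraped mucosa without those tumors, and whether it held tumors from elsewhere was not determined here. The labels do not say whether the samples of a group came from separate mice, so p-values rest on the spread between libraries, which may be technical in part. Control and curcumin mice differ by all 3 agents at once, and the effect of curcumin alone cannot be told apart from that of AOM and DSS here. Target capture with the Agilent SureSelectXT Mouse Methyl-Seq kit preceded bisulfite treatment and sequencing, in which unmethylated cytosines read as thymines. The level of a region is the percentage of methylated calls among all calls over its CpGs, and differences in level are given in percentage points, curcumin minus control unless said otherwise. Regions are named by the files' mm9 coordinates.

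AOM is a colon carcinogen and DSS damages and inflames the colon lining, and together they serve as a model of colitis-associated colon cancer. Curcumin is a polyphenol of turmeric studied for anti-inflammatory and antioxidant actions. In mammalian cells most cytosines of CpG pairs outside CpG islands are methylated, while the dense CpG islands at promoters are usually free of methylation. Loss of methylation over CpG-poor sequence together with gain at some islands is the textbook pattern of tumors. Imprinted control regions carry methylation on only the maternal or the paternal chromosome and so sit near the middle of the scale. Levels in a mixed tissue also depend on which cells it holds.

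The sequence around 4 gene starts shows where the CpGs of the promoter regions described further on lie, and these genes were picked after their values had been seen. The letters are RefSeq promoter sequence of build GRCm38.p6, from the first CpG of the region to its last CpG or, for Tnf, to the gene start, read 5′ to 3′ on the gene's strand, with CpGs in capitals. Tnf encodes the inflammatory cytokine tumor necrosis factor, Fbxw7 the substrate-binding part of a ubiquitin ligase that restrains growth, Hecw2 a ubiquitin ligase and Kat2a a histone acetyltransferase.
Tnf: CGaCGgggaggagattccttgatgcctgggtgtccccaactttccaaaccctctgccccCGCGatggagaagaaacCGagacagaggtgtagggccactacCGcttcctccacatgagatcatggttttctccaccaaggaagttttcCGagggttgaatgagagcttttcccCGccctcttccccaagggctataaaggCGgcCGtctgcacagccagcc
Fbxw7: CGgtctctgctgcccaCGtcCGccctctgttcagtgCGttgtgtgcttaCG
Hecw2: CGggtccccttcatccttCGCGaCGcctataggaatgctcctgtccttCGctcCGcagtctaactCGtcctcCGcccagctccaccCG
Kat2a: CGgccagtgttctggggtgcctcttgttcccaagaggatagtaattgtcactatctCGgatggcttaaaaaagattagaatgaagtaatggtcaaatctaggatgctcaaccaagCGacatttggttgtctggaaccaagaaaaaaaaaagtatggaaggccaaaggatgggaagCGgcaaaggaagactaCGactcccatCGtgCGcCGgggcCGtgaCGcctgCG
With the gene start between positions -1 and 1, the Tnf stretch runs from -221 to -1 and shows 10 of the region's 11 CpGs. The Fbxw7 stretch begins at -102 and holds 5 CpGs in 51 bases. For Hecw2 it begins at -226 and holds 9 CpGs in 88 bases. The Kat2a stretch begins at -233, and its 11 CpGs are crowded toward the end of its 227 bases.

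Of 209687 regions listed, 179922 (85.8%) had a value in all 6 libraries and entered the comparison. They hold 3 to 77 CpGs. Total calls per library ran from 24682973 (control replicate 1) to 30727568 (AOM/DSS replicate 0). The control libraries were the second deepest and the shallowest of the 6, with the curcumin libraries between them at 26924351 and 26069698 calls, so depth did not separate the groups.

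Averaged over all regions, the curcumin libraries lay slightly below the controls. Mean levels were 41.3% and 41.1% in the control libraries and 40.9% and 40.7% in the curcumin libraries, a difference of -0.417 points between group means of 41.2% ± 0.2002 and 40.8% ± 0.138 (SD, n = 2 each). The groups did not overlap, and the exact two-sided permutation test gave p = 0.333, the smallest that 2 samples against 2 allow. The AOM/DSS libraries averaged 40.2% and 40.4%, which is -0.899 points from the same controls. A region's curcumin mean was below its control mean in 52.9% of regions and above it in 46.6%, with a median difference of -0.168 points. In such bulk tissue a lower level per cell and a changed mix of cells cannot be told apart.

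The same offset recurred on nearly every chromosome. Both curcumin libraries lay below both controls on 18 of 19 autosomes, and the differences ran from -0.518 points on chromosome 9 to -0.333 points on chromosome 12. Chromosome 16 was the exception, with control values of 44.0% and 43.7% and curcumin values of 43.7% and 43.3%, where the higher curcumin library edged above the lower control. On chromosome X the difference was -0.294 points. The chromosomes share the same libraries.

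By region type, the offset was larger in CpG-sparse sequence, which also differed in level. Regions were sorted by position and CpG number alone. Core regions hold 30 or more CpGs, as CpG islands do, and near-core regions lie within 2000 bases of a core. The others are clustered (another region within 1000 bases), apart (the next region up to 10000 bases away) or isolated. The 8178 core regions averaged 3.70% and 3.61% in controls and 3.71% and 3.68% in curcumin libraries, a difference of 0.0427 points with overlapping groups. The 21947 near-core regions averaged 19.9% and 19.6% against 19.6% and 19.4% (-0.177 points), also with overlap. From there outward the groups no longer overlapped. Clustered regions, 104025 of them, differed by -0.387 points, and the 33228 regions apart differed by -0.664 points. The 12544 isolated regions averaged 59.7% and 59.9% in controls and 59.2% and 59.0% in curcumin libraries, a difference of -0.726 points. Without control replicate 0 the difference was -0.0156 points in near-core and -0.209 points in clustered regions. Without control replicate 1 regions apart stood at -0.786 and isolated regions at -0.644 points, the opposite order, as also at 100 calls or more (-0.609 and -0.590 points). Regions were also sorted by distance from the nearest core. The difference was -0.0411 points within 500 bases of a core, -0.292 between 500 and 1000 bases, and -0.500 over 50000 bases away. The controls overlapped the curcumin libraries again between 1000 and 5000 bases. Control replicate 1 was the lower control in every distance bin.

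**Figure D1:**
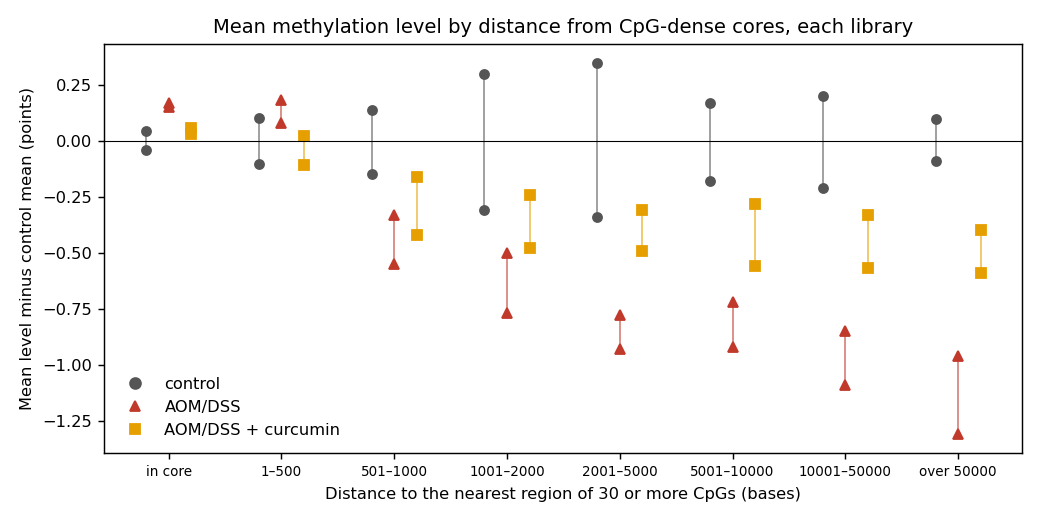
Mean methylation level of regions in 8 bins of distance to the nearest region of 30 or more CpGs, as the difference from the control mean of that bin in percentage points; each point is a library and lines join the 2 libraries of a group. The curcumin libraries sit beside the controls in and next to cores and between AOM/DSS and control farther away, at -0.500 points over 50000 bases.

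The region types differ in their levels (94.3% of core regions were under 10% methylated, while 47.7% of isolated regions were between 50% and 90%), so the offset was also read by level. To keep the choice of class apart from the compared samples, classes were set by the pooled AOM/DSS libraries. Intermediate levels held the largest differences. In the class from 30% to 50% the controls averaged 42.2% and 41.5% and the curcumin libraries 41.1% and 40.7%, a difference of -0.963 points. In the class from 50% to 70% they averaged 63.8% and 63.0% against 62.6% and 62.2%, a difference of -0.958 points. Differences were -0.504 points from 10% to 30% and -0.560 points from 70% to 90%, again without overlap. Without control replicate 0 the differences were -0.621 points from 30% to 50%, -0.551 from 50% to 70%, -0.315 from 10% to 30% and -0.292 from 70% to 90%. At the ends of the scale, under 10% (-0.0695 points) and from 90% up (-0.127 points), the groups overlapped.

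**Figure D2:**
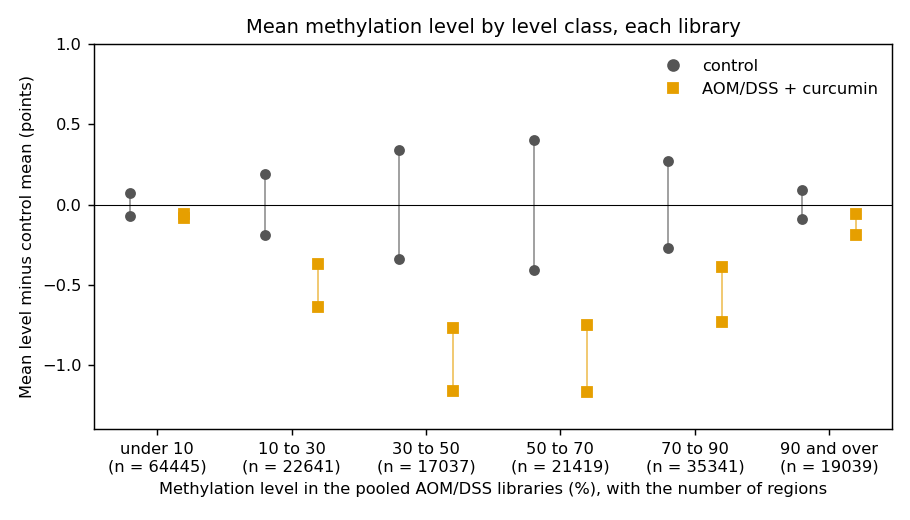
Mean level of regions in 6 classes of methylation level, as the difference from the control mean of the class in percentage points; points are the 2 control and 2 curcumin libraries, and classes were set by the AOM/DSS libraries, which are not drawn. The curcumin libraries lie below both controls in the 4 middle classes and reach -0.963 points between 30% and 50%.

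Within a level class the order of the types varied. Among regions of the 70% to 90% class, near-core regions differed by -0.353 points with overlap, clustered regions by -0.475, regions apart by -0.657 and isolated regions by -0.882. In the isolated regions of this class the controls stood at 83.7% and 83.5% and the curcumin libraries at 82.9% and 82.6%. From 10% to 30%, regions apart differed by -0.825 points and isolated regions by -0.491, and from 30% to 50% by -1.31 and -1.15. From 50% to 70% they differed by -1.05 and -1.08 points. Near-core regions differed by -0.173 points from 10% to 30%, -0.795 from 30% to 50% and -0.840 from 50% to 70%, all with overlap. Clustered regions stood at -0.484, -0.844 and -0.917 points in these classes. The differences between types were not tested against each other.

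No single region passed the test. With edgeR's quasi-likelihood test on methylated and unmethylated calls, a call required both an adjusted p below 0.05 and group means 10 points or more apart. It called 0 regions higher (0.0% of 179922) and 0 lower (0.0%), with every adjusted p at 1.0. At an unadjusted p under 0.05 stood 7507 regions, or 4.17%. Of these, 1011 were at least 10 points higher with curcumin (0.562% of all regions) and 1618 at least 10 points lower (0.899%). Without control replicate 0 these became 1906 and 2325. By limma 0 regions were called as well, with 9286 at an unadjusted p under 0.05. Fisher's exact test, which takes every one of the summed calls as independent and ignores the spread between libraries, called 639. Both curcumin libraries lay above both controls in 14.3% of regions and below both in 17.7%. With 2 libraries against 2, random labels would set the groups apart, in either direction, at a fraction of 0.333 of regions without ties. For AOM/DSS against the same controls edgeR called 7 regions (0.00389%). Leaving out control replicate 0 brought 1 region past the threshold with curcumin, chr11:96051326-96051653 in the Hoxb window, 23.6 points higher at an adjusted p of 0.0281 by edgeR.

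Region by region, a curcumin library was no farther from a control library than 2 libraries of a group were from each other. The mean absolute difference per region was 4.55 to 4.85 points over the 4 control and curcumin pairs, and 4.58 to 4.92 points over the 3 pairs within groups. For control and AOM/DSS pairs it was 4.77 to 5.32 points. The 2 controls, at 4.92 points, were the least alike of the within-group pairs.

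The regions described next are, in each direction, the 8 with the smallest unadjusted p whose groups did not overlap. None passes, the unadjusted p-values by edgeR run from 9.72e-06 to 0.000221, and nearly all lie far from any promoter that could be matched, so most carry no gene name. Only 1997 of 32851 promoter windows could be matched, so these regions may still lie at or near gene starts. The choice used the same controls that AOM/DSS is set against. AOM/DSS values on the curcumin side of those controls are therefore in part built in. The named regions split into large shifts at intermediate levels and shifts of a few points near 0%.

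The largest gap upward was at chr12:110697955-110698075, with 14 CpGs. Its levels were 40.4% and 46.8% in the controls and 77.4% and 78.9% in the curcumin libraries, 34.5 points apart (unadjusted p = 0.000178 by edgeR, adjusted p = 1.0). The AOM/DSS libraries stood at 49.4% and 48.3%, next to the controls, so here the curcumin libraries stood apart from both other groups. It rests on 53 to 89 calls per library. The next region, 142 bases on with 15 CpGs, read 78.3% in controls and 79.1% with curcumin. The position precedes the Meg3 imprinted window, whose first region starts at 110763840. In the RefSeq gene table Dlk1, a paternally expressed membrane protein of that domain related to Notch ligands, precedes Meg3, and whether the region lies in Dlk1 was not determined here.

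Grb10, a maternally methylated imprinted gene for an adaptor that dampens insulin signalling, holds the second. At chr11:11926084-11926286 (26 CpGs) the controls read 15.7% and 10.4% and the curcumin libraries 54.9% and 30%, which is 29.4 points higher on 67 to 254 calls. The AOM/DSS libraries read 32.3% and 21.6%, the higher of them inside the curcumin range. The curcumin libraries differed from each other nearly as much as the groups did, and the neighbouring 21-CpG region 138 bases away differed by -2.36 points with overlapping libraries.

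A pair of neighbouring regions on chromosome 7 stood higher in both treated groups. At chr7:139763677-139763700 levels were 56.8% and 49.2% in controls, 75.2% and 84.4% with curcumin and 86.5% and 86.4% with AOM/DSS. At chr7:139763446-139763496 they were 36.8% and 42.9%, 61.4% and 69.7%, and 74.3% and 86.8%. Curcumin values thus lay 26.8 and 25.7 points above control, and AOM/DSS values 33.5 and 40.7 points above the same controls. Another region of this kind, chr1:107777336-107777590, read 6.30% and 6.25% in controls, 27.0% and 25.6% with curcumin and 20.2% and 26.2% with AOM/DSS. Its 13-CpG neighbour 16 bases on averaged 15.3% in controls, 16.3% with curcumin and 20.9% with AOM/DSS. A 3-CpG region at chr13:58911367-58911380 read 65.9% and 87.2% in controls and 98.4% and 98.7% with curcumin, and the controls differed from each other by about as much as the groups did. Its neighbour 108 bases before averaged 63.7% in controls and 80.2% with curcumin, and the neighbour 122 bases on 87.4% and 89.2%. The other 3 higher regions lay near 0%. The region chr6:85912329-85912469 read 0% and 0.730% in controls and 7.69% and 6.82% with curcumin. On chromosome 18 a region of 11 CpGs had no methylated call in either control and 4.35% and 5.59% with curcumin. The last, chr12:58649320-58649623, read 0% in both controls and 2.02% and 2.12% with curcumin.

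Among the lower regions, 4 intermediate ones had both treated groups below both controls. At chr3:61962886-61963167, an isolated region of 14 CpGs and the smallest unadjusted p of all (9.72e-06 by edgeR), controls read 81.1% and 91.6% and curcumin libraries 55.4% and 49.5%, with AOM/DSS at 57.2% and 67.6%. At chr3:5860292-5860492 they read 76.2% and 51.9% against 34.1% and 21.9%, with AOM/DSS at 38.9% and 27.4%. The 18-CpG region 127 bases on did not share this, averaging 19.9% in controls, 19.6% with curcumin and 19.4% with AOM/DSS. The region chr16:93684596-93684777 read 28.7% and 25% in controls, 5% and 7.63% with curcumin and 5.79% and 13.1% with AOM/DSS. Its 3-CpG neighbour 196 bases on was lower too, averaging 49.2% in controls, 28.8% with curcumin and 34.4% with AOM/DSS. The only core region among the 16 was chr5:147072557-147072918, with 37 CpGs and a wide range of 317 to 2501 calls per library. It read 44.0% and 36.0% in controls, 25.0% and 18.8% with curcumin and 26.6% and 18.9% with AOM/DSS.

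At the other 4 lower regions the AOM/DSS libraries were nearer the controls. The region chr4:129013551-129013884 read 16.3% and 28.4% in controls, 19.5% and 15.7% with AOM/DSS and 7.83% and 6.71% with curcumin. A region on chromosome 1, chr1:92099199-92099625, read 4.99% and 7.34% in controls and 1.11% and 0.971% with curcumin. No methylated call was seen in the curcumin libraries at chr4:129128917-129129016 (2.19% and 3.79% in controls) and at chr6:83725213-83725685 (1.68% and 1.11%). The difference between curcumin and AOM/DSS was not tested at these regions. At the regions among these 16 with a level of 0%, the 0 stands for 0 of 133 to 478 calls, which allows a level of 0.628% to 2.26% (3 calls of the total, counting error only).

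**Figure D3:**
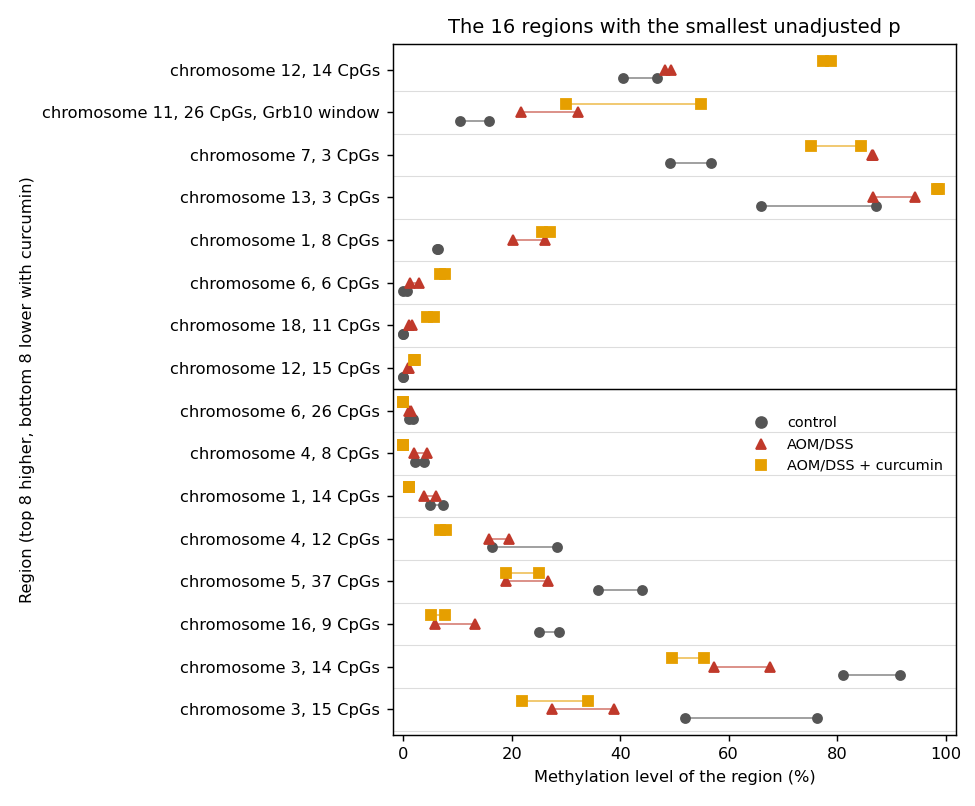
Methylation level in percent of the 16 regions with the smallest unadjusted p and no overlap, 8 higher (top) and 8 lower (bottom) with curcumin; each point is a library and lines join the libraries of a group. Large gaps sit at intermediate levels, such as 40.4% and 46.8% against 77.4% and 78.9% on chromosome 12, and the AOM/DSS points fall on either side.

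At the 7 regions called in AOM/DSS against control, the values are given side by side, since the comparisons share those controls. Besides the chromosome 7 pair, 5 regions were lower with AOM/DSS. At chr10:17403808-17403883, an isolated region, controls read 47.1% and 57.6%, curcumin libraries 40.4% and 30.4% and AOM/DSS libraries 18.7% and 12.9%. At chr10:77555505-77555773 they read 17.9% and 8.70%, 6.40% and 5.85%, and 1.37% and 1.19%. The others were 1 in the Tmem2 window and 2 at Tnf.

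The Ltb/Tnf/Lta window is named for 3 cytokine genes of the tumor necrosis factor family. Its regions with values run from the Ltb promoter to the Tnf promoter, and none was matched to Lta. Just downstream of the Tnf start, summed levels of the curcumin libraries lay between control and AOM/DSS. At the Tnf promoter every library was under 2%. At the promoter region, chr17:35338934-35339172, whose CpGs are printed above, the controls had no methylated call in 159 and 113 (allowing up to 1.89% and 2.65%). There the curcumin libraries read 1.5% and 0% and the AOM/DSS libraries 1.63% and 1.35%. The next 3 regions in the direction of transcription, from 35337598 to 35338812, lay lower in both curcumin libraries than in both controls. Summed over these 3, levels were 57.5% and 60.2% in controls, 50.9% and 36.5% with curcumin and 29.4% and 15.5% with AOM/DSS. The differences from control were -15.2 points for curcumin and -36.4 points for AOM/DSS. The 2 curcumin libraries differed by almost as much as the groups did. Single regions of the 3 had unadjusted p-values by edgeR of 0.0179, 0.0230 and 0.0540, and adjusted p = 1.0. The region 35333992-35334221 was lower too, at 83.8% and 87.0% against 77.4% and 65.4%, with AOM/DSS at 68.6% and 68.6%. At the Ltb side of the window levels overlapped. The core region 35332685-35333034 stayed under 2% in every library, and the region at the Ltb promoter read 44.4% and 31.6% in controls and 29.2% and 33.3% with curcumin.

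**Figure D4:**
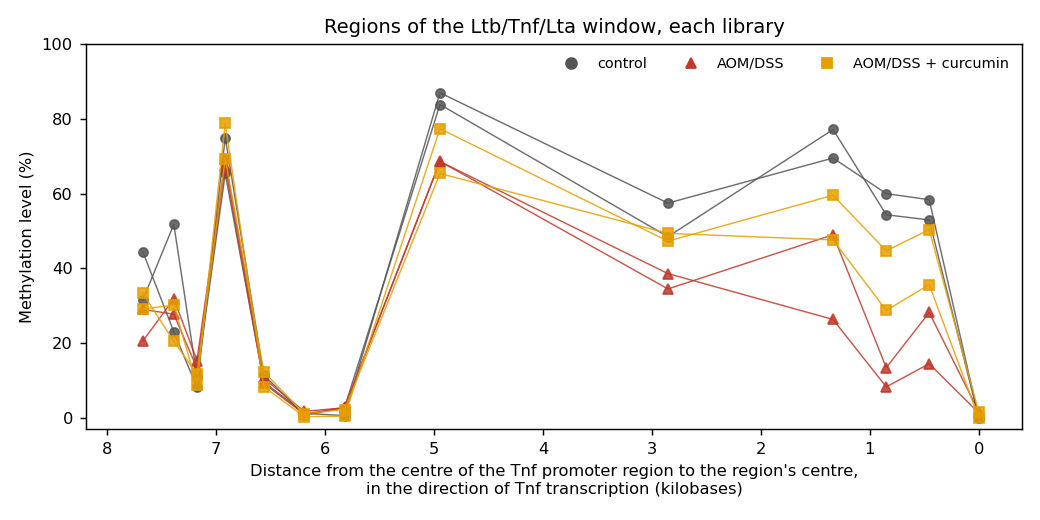
Methylation level in percent of the 13 regions of the Ltb/Tnf/Lta window against their distance in kilobases from the Tnf promoter region, in the direction of Tnf transcription; each line is a library. At the promoter all libraries are near 0%, and over the 3 regions next to it the curcumin libraries lie between the controls (57.5% and 60.2% when summed) and AOM/DSS (29.4% and 15.5%).

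Tmem2 encodes a cell-surface hyaluronidase. In its window, 3 adjoining regions near chr19:21892566 were lower than control in both treated groups. The region chr19:21892566-21892986 read 83.3% and 84.7% in controls, 77.0% and 73.3% with curcumin and 40.4% and 33.3% with AOM/DSS. Just before it, 21892333-21892451 read 97.9% and 95.2%, 85.4% and 75.7%, and 76.4% and 81.2%. The third, 21893122-21893376, read 97.6% and 94.3% in controls, 90.1% and 90.5% with curcumin and 76.9% and 68.0% with AOM/DSS. Curcumin minus control was thus -8.81, -16.0 and -5.67 points, against -47.1, -17.7 and -23.5 points for AOM/DSS. Of the other 18 regions, 2 had both treated groups below both controls. These were 21851924-21852248, at 21.8% and 16.8% in controls and 12.4% and 12.6% with curcumin, and 21867099-21867312, at 95.4% and 97.1% against 88.7% and 84.0%. Over all 21 regions 6 had both curcumin libraries below both controls (28.6%, beside 17.7% of all regions), and the median difference was 0.111 points.

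Stretches of at least 3 neighbouring regions in which both curcumin libraries lay on one side of both controls by 10 points or more on average were counted without a test. There were 7 such runs higher and 28 lower. How many stretches could have formed a run was not counted, so no share can be given. Over all regions, 14.3% of single regions lay apart upward in this way and 17.7% downward. Summed levels of a run can overlap, as at chr5:139802046-139803239, with 40.5% and 43.4% in controls and 33.5% and 42.4% with curcumin. The lower run with most regions, 4 of them at chr11:18907786-18909270, read 85.3% and 89.7% in controls, 77.2% and 78.9% with curcumin and 79.6% and 83.4% with AOM/DSS. At chr16:93684596-93685442, which includes the region named above, summed levels were 46.9% and 38.2% in controls, 25.1% and 17.6% with curcumin and 28.6% and 28.3% with AOM/DSS. A run at chr9:64766288-64766833 read 37.8% and 46.0% against 31.7% and 15.2%. On chromosome X a run at chrX:147090399-147091264 read 51.6% and 48.5% in controls and 42.3% and 42.8% with curcumin. Upward, chr1:135078250-135079604 read 16.9% and 16.6% in controls, 29.7% and 30.4% with curcumin and 38.3% and 31.4% with AOM/DSS. A second, chr14:86795080-86795936, read 30.9% and 27.6% against 37.6% and 41.4%.

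The gene starts that could be matched differed little on average. By CpG number and span, 1902 regions were matched to the start of a RefSeq gene, of which 1375 had values in all libraries. These averaged 19.7% and 19.3% in controls and 19.4% and 19.2% with curcumin. The difference was -0.260 points with overlap, beside -0.418 points over the other regions. By level class, 900 of the 1375 fell under 10%, where the difference was -0.127 points with overlap. From 10% to 30% it was -0.555 points without overlap. From 30% to 50% and from 50% to 70% it was -0.967 and -0.997 points with overlap. From 70% to 90% it was -0.0225 and from 90% up 0.047 points, both with overlap. With an unadjusted p below 0.05 and a gap of 10 points or more, 9 promoter regions were higher (0.655%, beside 0.562% of all regions) and 6 lower (0.436%, beside 0.899%). None passed the adjusted test. Leaving out 1 higher region whose groups overlapped, 14 remained. They too were chosen against the controls that AOM/DSS shares, so both treated groups lying on one side is in part built in.

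Of the 8 higher, Fbxw7 had its AOM/DSS libraries farthest from control. Its promoter region, chr3:84756031-84756080, read 14.3% and 6.98% in controls, 28.2% and 20.9% with curcumin and 38.4% and 34.4% with AOM/DSS (unadjusted p = 0.0175 by edgeR, adjusted p = 1.0). Epha2, a receptor kinase for ephrins, read 4% and 0% in controls and 12.0% and 19.4% with curcumin on 25 to 59 calls, where the 0% is 0 of 45 calls and allows up to 6.67%. At Stat5b, a transcription factor downstream of cytokine receptors, the levels were 70.1% and 76% against 82.0% and 87.6%. Myo1f, an unconventional myosin of immune cells, read 15.2% and 9.62% against 23.9% and 28.6%. At Tspo2 the controls, 46.9% and 15.8%, were farther apart than the group means. The remaining 3, Gm15343, Gm33795 and Gm29695, are predicted genes and differed by 17.2, 10.7 and 14.4 points. At Gm33795 the controls had no methylated call in 23 and 28, which allows up to 13.0% and 10.7%, and curcumin libraries read 4.76% and 16.7%. At Gm15343 the controls, 45.5% and 62.5%, were about as far apart as the group means.

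Among the 6 lower, Hecw2 had the smallest unadjusted p of the 14, 0.000545 by edgeR (adjusted p = 1.0). Its promoter region, chr1:54252017-54252103, read 20.3% and 27.6% in controls, 0% and 2.50% with curcumin and 2.63% and 6.52% with AOM/DSS, on 25 to 118 calls. The 0% is 0 of 25 calls and allows a level of up to 12.0%. Kat2a, at chr11:100573788-100574013, read 26.5% and 20.8% in controls, 8.55% and 13.8% with curcumin and 16.3% and 13.1% with AOM/DSS. At both, both treated groups lay below both controls. Bcl2a1d, an inhibitor of cell death of the BCL2 family, read 53.8% and 53.1% against 35.3% and 23.7%, but it belongs to a set of near-identical copies, so its reads are uncertain. The predicted genes Gm30139, Gm35696 and Gm46757 differed by -20.1, -13.0 and -21.4 points. At Gm30139 the controls, 21.4% and 40.7%, were nearly as far apart as the group means.

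Imprinted control regions had nearly the same mean level in both groups. Over 70 regions in 13 maternally methylated windows, controls averaged 52.3% and 53.1% and curcumin libraries 52.9% and 52.5%, a difference of 0.00247 points. With an unadjusted p below 0.05 and a gap of 10 points or more, 5 of these regions were higher and 5 lower, 7.14% in each direction beside 0.562% and 0.899% of all regions. The windows were chosen with earlier results of these data known, and their regions sit at intermediate levels where differences of that size are more frequent, up to 1.60% lower in a level class. Summed over a window, Mest, which encodes a hydrolase-like protein and is expressed from the paternal copy, read 46.8% and 45.0% in controls and 42.2% and 39.96% with curcumin. Plagl1, a zinc finger growth regulator, read 43.3% and 43.1% against 55.4% and 47.2%. The 2 regions of Grb10 together read 28.5% and 17.2% against 39.3% and 35.4%. Kcnq1ot1, a long noncoding RNA that silences its neighbours, read 80.6% and 80.9% in controls, 75.2% and 81.4% with curcumin and 69.5% and 65.9% with AOM/DSS. The windows of Peg3, Snrpn, Airn/Igf2r, Peg10, Nnat, Nap1l5, Slc38a4 and Inpp5f had overlapping groups, and Zrsr1 differed by 1.42 points.

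In the paternally methylated windows, H19 read 52.3% and 40.6% in controls and 48.0% and 44.2% with curcumin, and Meg3 read 61.7% and 58.9% against 59.8% and 61.9%. None of their 24 regions reached an unadjusted p under 0.05 with 10 points. The Gnas cluster averaged 34.7% and 31.5% against 37.2% and 33.4% over 31 regions, a difference of 2.19 points that became -0.718 among regions with at least 100 calls per library.

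The Hox clusters, developmental transcription factor genes in long CpG-dense domains, averaged 19.1% and 18.9% in controls and 19.5% and 18.8% with curcumin over 443 regions. Here 4 regions were higher and 3 lower at an unadjusted p under 0.05 with 10 points, 0.903% and 0.677% beside the 0.562% and 0.899% of all regions. Of the 4 clusters only Hoxd had groups apart, at 16.3% and 17.5% in controls and 15.96% and 15.95% with curcumin, with calls summed.

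Apart from Tnf, the windows of inflammatory genes showed no shared direction. Over all 45 regions of this group the controls averaged 38.9% and 38.6% and the curcumin libraries 37.2% and 37.2%, a difference of -1.55 points beside a median of -0.349, and -0.432 points among regions with at least 100 calls per library. Il6, an inflammatory cytokine, was higher with curcumin, at 19.3% and 20.4% against 23.4% and 21.2% with calls summed. Nos2, the inducible nitric oxide synthase, read 16.6% and 11.5% in controls, 15.0% and 15.2% with curcumin and 18.8% and 20.4% with AOM/DSS. Ptgs2, the inducible cyclooxygenase, had 1 region, under 5% in every library. Stat3, a transcription factor of cytokine signalling, overlapped.

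Hnf4a, a transcription factor of gut epithelium, read 22.4% and 22.2% in controls, 24.4% and 25.5% with curcumin and 27.4% and 29.4% with AOM/DSS over 19 regions with calls summed, while the median difference of those regions was -0.819 points. Vil1, which builds the microvilli of the brush border, read 22.4% and 21.6% against 26.9% and 23.0%. The gut homeobox gene Cdx2 overlapped, with controls at 6.204% and 16%. The stem cell and Wnt genes Lgr5 and Axin2, the antioxidant genes Nfe2l2 and Keap1 and the tumor suppressor Cdkn2a overlapped in every case, and none of the 29, 30 and 10 regions of these groups was past an unadjusted p of 0.05 with 10 points.

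Windows of genes typical of other cells bear on the makeup of the scrapings. Ptprc, which encodes the leukocyte surface protein CD45, read 62.8% and 60.6% in controls, 67.4% and 63.0% with curcumin and 57.6% and 56.8% with AOM/DSS over 11 regions with calls summed. With calls summed, the stroma genes Col1a1 (17.7% and 19.6% against 20.5% and 19%) and Vim (18.2% and 21.7% against 22.4% and 17.1%) overlapped. With regions weighted equally, the 15 stroma regions averaged 20.3% and 21.2% in controls and 19.6% and 19.96% with curcumin, without overlap (-1.01 points). Ptprc weighted in this way overlapped, at 63.6% and 59.6% in controls and 66.7% and 60.1% with curcumin. No region of these 3 windows was past an unadjusted p of 0.05 with 10 points. The part of cell makeup in the differences above was not tested.

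**Figure D5:**
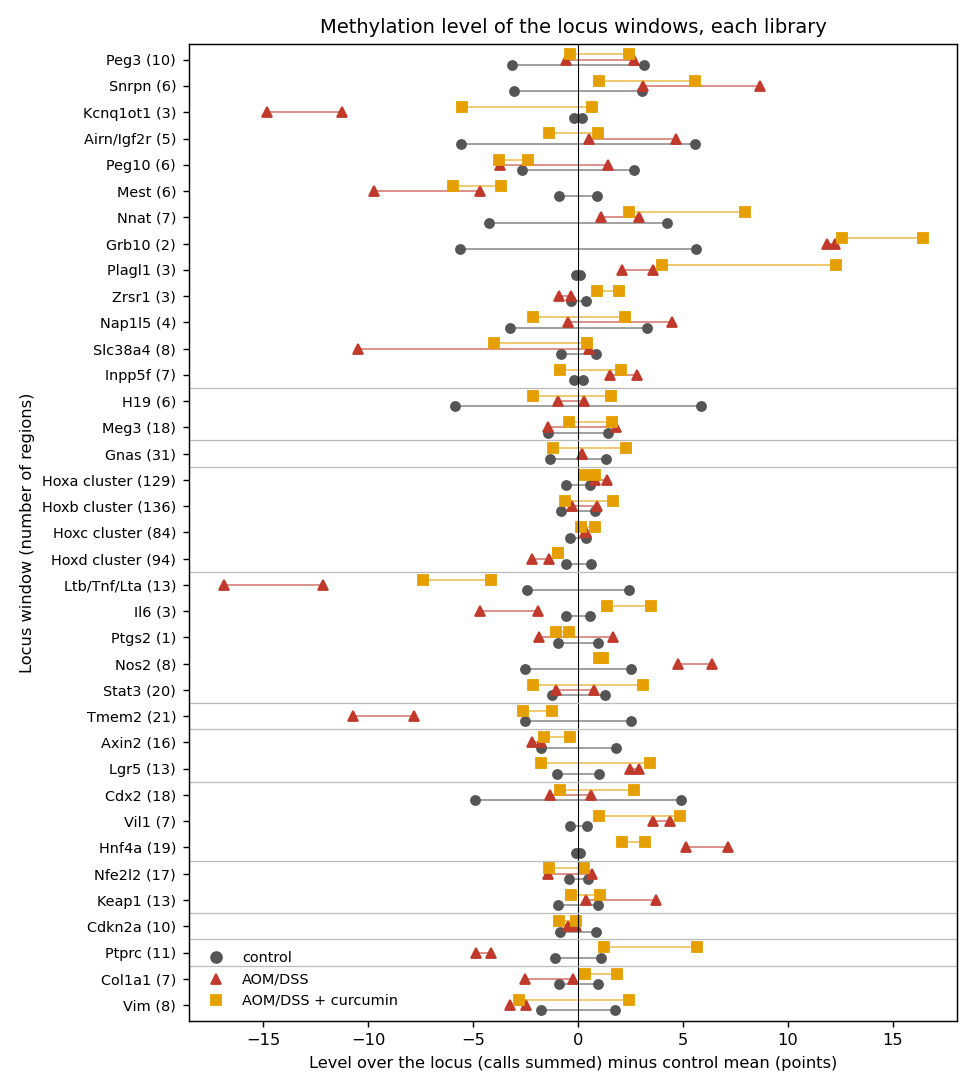
Methylation level of 37 locus windows with calls summed over their regions (number in brackets), as the difference from the control mean in percentage points; points are libraries, lines join the libraries of a group and rules part the locus groups. Both curcumin libraries lie above both controls at Grb10, Plagl1, Zrsr1, Il6, Vil1, Hnf4a and Ptprc and below both at Ltb/Tnf/Lta, Mest and the Hoxd cluster, and the groups overlap at the other loci. Over all single regions 14.3% lay apart upward and 17.7% downward, and random labels would set groups apart, in either direction, at a fraction of 0.333.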

How the data were processed

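The deposited files hold counts made by the authors: for each region and library the number of methylation calls over its CpGs and the number of methylated calls, with no value under 20 calls. Build mm9, Bismark 0.15.0, ChIPseeker 1.10.3 and R 3.4.0 are named per the submitters' processing notes. Their roles and settings, the region definition and the base of region starts (0 or 1) were not given in the sources used here.

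Levels are 100 times methylated calls over calls, for regions with at least 10 calls in all 6 libraries. Means over regions weight regions equally, and locus windows and runs sum calls. edgeR 4.0.16 (R 4.3.3) fitted methylated and unmethylated counts of all 6 libraries, with a coefficient per library and per group, and quasi-likelihood p-values were adjusted by Benjamini-Hochberg over all regions. The test was checked on simulated data. Other computations used Python 3.11.15, numpy 2.4.6 and pandas 2.3.3. Calls of 1 read are not independent, so no interval was drawn from calls. Median calls per region were 96.0 to 118.0.

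The samples, lists and windows were chosen with earlier results of these data known. The 8 regions per direction were named by smallest unadjusted p without overlap, as none was called, runs by most regions then mean difference, and promoters by unadjusted p under 0.05, 10 points and no overlap, a rule chosen after seeing the files. No mm9 annotation was used. The 38 locus windows were drawn from general knowledge of mm9 positions, so their edges are approximate; the Rasgrf1 window held no region. A region was tied to a RefSeq promoter window (GRCm38.p6, 32851 windows) where CpG number and the distance from first to last CpG were identical and at least 3 regions within 5000000 bases shared the same position shift, a method devised after seeing the files. It matched 1873 genes, and 0 windows when read backwards. Alternatives were other call minimums, each library left out, pooled calls, autosomes only, other classes, 4 samples only, a replicate block, limma 3.58.1 and Fisher's exact test.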

Additional observations from a re-analysis of the deposited data

How the results depend on the processing

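The mean difference over all regions stayed below 0 in every alternative run, between -0.558 and -0.275 points with 1 library left out and -0.282 points at 100 calls or more. By level class and by region type, the classes from 10% to 90% and the clustered, apart and isolated types also stayed below 0 in every alternative. With calls pooled over regions, core regions differed by 0.377 points, maternally methylated imprints by 0.768, Wnt and stem cell loci by -0.252 and stroma loci by 0.249. With regions weighted equally these differences were 0.0427, 0.00247, 0.988 and -1.01 points, so the Wnt and stroma values changed sign. With at least 50 calls per library, inflammation loci differed by -1.30 and antioxidant loci by -0.929 points. At 100 calls or more they differed by -0.432 and 0.156, with the Gnas cluster at -0.718. Without these minimums the inflammation, antioxidant and Gnas differences were -1.55, -0.435 and 2.19 points. The cause was not tested. With 1 library left out, the number of called regions ran from 0 to 1, and regions at an unadjusted p under 0.05 with 10 points from 1005 to 1906 higher and 1416 to 2364 lower. Those numbers were 510 higher and 904 lower at 50 calls, and 169 and 318 at 100 calls, where fewer regions were tested, 3297 and 4210 with no minimum difference and 216 and 343 at 20 points. Fisher's exact test, which ignores the spread between libraries, called 639 regions and gave 2682 higher and 4274 lower. Lower regions outnumbered higher ones in every setting. Replicate numbers did not pair the libraries: the deviations of same-numbered libraries correlated at 0.0524, 0.00996 and 0.00531 between groups. With the replicate block edgeR called 0 regions and gave 1035 higher and 1621 lower. Apart from Fisher's test, and apart from chr11:96051326-96051653 without control replicate 0 (adjusted p 0.0281 by edgeR), the regions named for their smallest p, promoter or AOM/DSS call did not pass in the alternatives, with adjusted p-values from 0.110 to 1.0.

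With 2 libraries per group the exact test cannot go below 0.333, and regions rest on as few as 20 calls.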
